A study of Homo sapiens with 6 samples.

Results

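The transcripts described are 10 long noncoding RNAs (lncRNAs) that are known as nuclear RNAs or from studies of cancer: MALAT1, NEAT1, TUG1, H19, PVT1, HOTAIR, UCA1, CYTOR, MIR22HG and MIR17HG. They were picked by name, with earlier results of these data known. Their rows were found by exact symbol in a table of 41656 loci, of which 27678 carried at least 1 gene symbol. Of the 10 symbols, 9 were in the table, among 26822 distinct symbols. CYTOR was not, and the row that carries its older RefSeq symbol, LINC00152, is described in its place. PVT1 had 3 rows, of which the row with the highest mean was kept, and the other 8 matched lncRNAs had 1 row each.

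The cells were MCF10A, an immortalised but non-tumorigenic breast epithelial line. They received 30 nM of siNT, a non-targeting siRNA, or of siPAX9, siRNAs against the transcription factor PAX9, for 72 hours, and 3 samples of each group were sequenced as poly(A)+ RNA. The authors deposited 1 pooled FPKM per locus and group, a read number normalised for transcript length and library size, so no error between samples and no test could be computed from the FPKM, the authors' own p-values were not used, and the number of reads behind a value was not in the table. All values below are therefore descriptions of 2 pooled values. PAX9 stood at 2.80 FPKM in siNT and 0.325 FPKM in siPAX9, a log2 ratio of -3.10. Of 8 epithelial markers, basal ones among them, all 8 had a mean FPKM of at least 1, with KRT5 at 1558 in siNT and 1807 in siPAX9, and their summed FPKM, most of it from KRT5 and KRT17, was 3573 in siNT and 4258 in siPAX9. Of these 8, CDH1 was at least 2-fold higher in siPAX9 (45.3 and 124) and EPCAM was lower (34.3 and 16.7), and TP63 had 35.4 and 25.3. The log2 ratio of EPCAM, -1.04, became -0.997 with 1 added to each FPKM and -0.97 after centring on the median of all loci, both within 2-fold. Of 10 markers of other cells, 6 had a mean under 1, among them PTPRC at 0.0166 in siNT and 0.0922 in siPAX9, and CD3E was listed at 0 in both groups. The summed FPKM of these 10 was 16.8 in siNT and 53.5 in siPAX9, of which DCN made up 5.85 and 37.9. COL1A1 was also higher (0.454 and 4.13), ACTA2 had 7.77 and 10.6, and PECAM1 was lower (2.58 and 0.495). The part of this difference in the results below was not tested, and in bulk RNA fewer cells with a transcript and less of it per cell cannot be told apart.

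LncRNAs are regarded as acting mainly as RNA and not through a protein, although GENCODE types TUG1 as protein coding. MALAT1 gathers in nuclear speckles, the bodies that hold splicing factors, and NEAT1 is the scaffold of paraspeckles, a neighbouring kind of nuclear body built around the long form of this RNA. H19 is an imprinted transcript made from the maternal allele, and H19, MIR22HG and MIR17HG are also precursors from which microRNAs (miRNAs) are cut. HOTAIR comes from the HOXC cluster, PVT1 lies beside MYC in a region that is often amplified in tumours, and UCA1 and CYTOR are best known for being raised in carcinomas.

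The 3' ends of MALAT1 and NEAT1 are shown first, because they set these transcripts apart from the polyadenylated RNAs that the libraries were made from. MALAT1 and the long form of NEAT1 carry no conventional poly(A) tail. They are cut by RNase P before a tRNA-like RNA, and their ends are held by U-rich motifs that pair with an A-rich tract as a triple helix. Both sequences were read from the plus strand of chromosome 11 of GRCh37, which has the coordinates of the authors' hg19, and run 161 bases each. Capitals mark exact matches to TTTTTCTTTT, TTTTGCTTTT and AAAAAGCAAAA.
MALAT1, chr11:65273487-65273647: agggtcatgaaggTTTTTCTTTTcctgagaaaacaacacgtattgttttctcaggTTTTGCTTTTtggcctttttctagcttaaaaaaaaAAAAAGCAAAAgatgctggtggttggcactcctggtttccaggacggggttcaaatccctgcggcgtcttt
NEAT1, chr11:65212911-65213071: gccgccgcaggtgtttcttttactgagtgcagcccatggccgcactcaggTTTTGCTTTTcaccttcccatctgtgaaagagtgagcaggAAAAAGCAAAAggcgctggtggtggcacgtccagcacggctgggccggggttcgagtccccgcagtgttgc

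All 3 motifs were present at the end of MALAT1, and NEAT1 held TTTTGCTTTT and AAAAAGCAAAA but no exact match to TTTTTCTTTT. The A-rich match of MALAT1 ended at position 65273587, with another 396 bases of the row after it. That of NEAT1 ended at 65213011, 2 bases past the end of its row. The NEAT1 row spanned 65190269 to 65213009, which holds both the short and the long form, and its single FPKM does not separate them. In the GENCODE annotation NEAT1 has 9 transcripts, of 512 to 22743 bases, and its longest has a single exon.

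The miRNAs whose symbols share a row with these lncRNAs are given next, since the host RNA is what the libraries measured and the mature miRNAs, which are not polyadenylated, were not. The row of H19 carries MIR675, that of MIR22HG carries MIR22, and that of MIR17HG carries 6 miRNA genes. The mature sequences are from RefSeq (GRCh38.p14), and capitals mark the seed, bases 2 to 8, which pairs with target mRNAs.
miR-17-5p: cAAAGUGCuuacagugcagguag
miR-20a-5p: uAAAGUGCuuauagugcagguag
miR-18a-5p: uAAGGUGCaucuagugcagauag
miR-19a-3p: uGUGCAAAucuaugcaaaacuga
miR-19b-3p: uGUGCAAAuccaugcaaaacuga
miR-92a-3p: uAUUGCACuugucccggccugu
miR-22-3p: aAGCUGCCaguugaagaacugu
miR-675-5p: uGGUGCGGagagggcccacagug

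By seed, miR-17-5p and miR-20a-5p form a pair with AAAGUGC, and miR-19a-3p and miR-19b-3p a pair with GUGCAAA. The seed of miR-18a-5p, AAGGUGC, differs from that of the miR-17 pair, and miR-92a-3p, miR-22-3p and miR-675-5p each have a seed of their own.

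The nuclear lncRNAs had the highest FPKM of the 10. MALAT1 (chromosome 11, 65265233 to 65273983, plus strand) stood at 94.1 FPKM in siNT and 246 FPKM in siPAX9, which put it above 96.2% of the loci with a symbol and a value above 0 in siNT and above 98.9% in siPAX9. NEAT1, whose row ends 52.2 kb before that of MALAT1 on the same strand, stood at 90.7 FPKM in siNT and 164 FPKM in siPAX9, above 96.0% and 98.3% of such loci. TUG1 (chromosome 22, 31318295 to 31375380), a widely expressed RNA with nuclear and cytoplasmic copies that GENCODE types as protein coding, stood at 38.4 FPKM in siNT and 38.1 FPKM in siPAX9. MALAT1 and NEAT1 were thus at nearly the same level per length in siNT, with a ratio of 1.04, and apart in siPAX9, with a ratio of 1.50. Set against TUG1, the FPKM of MALAT1 was 2.45 times as high in siNT and 6.46 times as high in siPAX9. For RNAs without a conventional poly(A) tail, FPKM from poly(A)+ libraries may depend on capture as well as amount. The values of MALAT1 and NEAT1, and their ratios to other RNAs, may therefore not be RNA amounts, which was not tested.

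On the log2 scale the difference between siPAX9 and siNT was 1.39 for MALAT1, 0.86 for NEAT1 and -0.012 for TUG1. MALAT1 was past 2-fold and NEAT1, at 1.81-fold, was not. Of the 12595 loci with a symbol and a mean FPKM of at least 1, 546 had a larger log2 ratio than MALAT1 and 1046 a larger one than NEAT1. TUG1 lay close to the median of these loci, -0.07, and its ratio changed sign, to 0.055, when all ratios were centred on that median. Reads of MALAT1 cannot be told apart from those of TALAM1, its antisense transcript (65266783 to 65274903, minus strand), where strand was not counted, and the strand setting of the libraries is not given in the sources used here. Of the distinct stretches of 76 bases, the read length, in annotated MALAT1 transcripts, 54.8% were also in TALAM1.

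**Figure D1:**
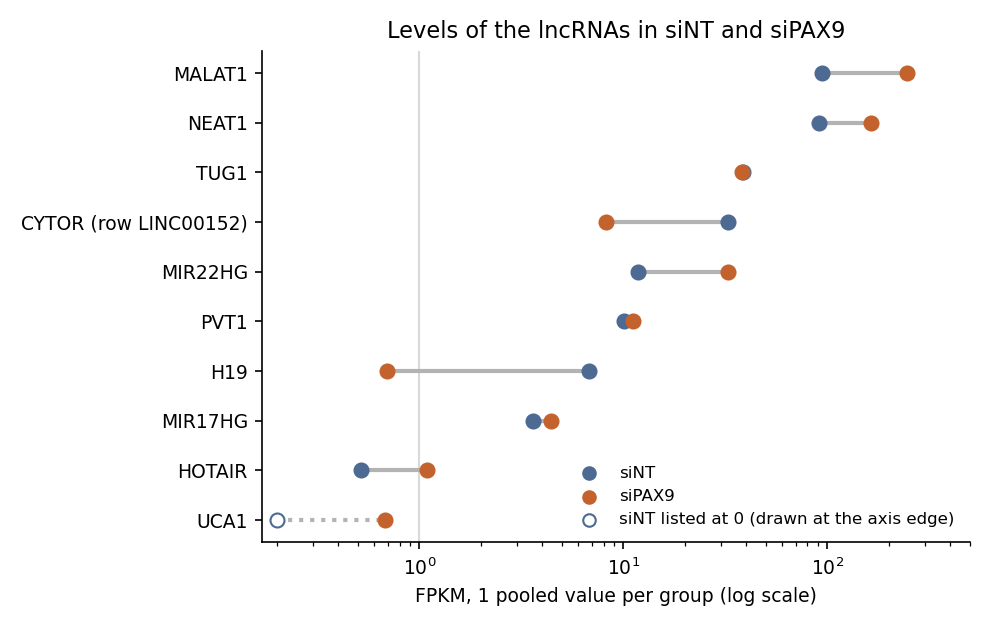
FPKM of the 10 lncRNAs (horizontal log axis) in siNT (blue) and siPAX9 (orange), 1 pooled value per group, ordered by the level in siNT. MALAT1 and NEAT1 lie at the top with higher values in siPAX9, H19 and the row of CYTOR have lower values in siPAX9, and the 2 points of TUG1 coincide. UCA1, listed at 0 in siNT, is drawn there as an open point at the axis edge.

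Of the other lncRNAs, H19 and CYTOR were lower in siPAX9. H19 (chromosome 11, 2012326 to 2022696, minus strand) stood at 6.76 FPKM in siNT and 0.690 FPKM in siPAX9, a 9.79-fold lower level and a log2 ratio of -3.29. Only 77 of the 12595 loci had a smaller ratio, while PAX9 itself had 81 below it. H19 was above 56.6% of the loci with a value in siNT and above 31.0% in siPAX9. Because its level in siPAX9 was under 1, adding 1 to each FPKM brought the log2 ratio to -2.20, still past 2-fold.

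The row of CYTOR, listed as LINC00152 (chromosome 2, 87754974 to 87821030), stood at 32.6 FPKM in siNT and 8.26 FPKM in siPAX9, a 3.95-fold lower level and a log2 ratio of -1.98. The value is uncertain, since CYTOR has a near-identical copy, MIR4435-2HG, elsewhere on chromosome 2 (111763592 to 112280953 in GENCODE). Of the 19281 distinct stretches of 76 bases, the read length, in the annotated transcripts of CYTOR, 44.6% were also found in transcripts of MIR4435-2HG. The row of MIR4435-2HG stood at 30.4 FPKM in siNT and 7.79 FPKM in siPAX9, a log2 ratio of -1.97. The 2 rows had nearly the same values in each group. Since reads from the shared stretches cannot be told apart, the rows cannot be taken as separate measurements, and whether sharing accounts for the likeness was not tested. For NEAT1, H19, HOTAIR and MIR22HG, 0 such stretches were shared with the annotated transcripts of another gene.

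The miRNA hosts MIR22HG and MIR17HG differed from each other. MIR22HG (chromosome 17, 1614798 to 1619566, minus strand) stood at 11.8 FPKM in siNT and 32.5 FPKM in siPAX9, which is 2.75-fold higher and a log2 ratio of 1.46, and 516 loci had a larger ratio. It was above 68.6% of the loci with a value in siNT and above 88.9% in siPAX9. MIR17HG (chromosome 13, 91999977 to 92007598, plus strand) stood at 3.62 FPKM in siNT and 4.42 FPKM in siPAX9, a log2 ratio of 0.29, and was within 2-fold. Of the 13528 stretches of 76 bases in MIR17HG transcripts, 17.9% were shared with an annotated antisense gene.

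PVT1, HOTAIR and UCA1 are the remaining cancer-related members. The main row of PVT1 (chromosome 8, 128806779 to 129113515) stood at 10.1 FPKM in siNT and 11.2 FPKM in siPAX9, a log2 ratio of 0.14. Its other rows, with the same span, were lower in level and had log2 ratios of 0.36 (1.89 in siNT and 2.42 in siPAX9) and 1.09 (0.704 and 1.50), so the rows of PVT1 were not uniform. Summed over the 3 rows the log2 ratio was 0.25. HOTAIR (chromosome 12, 54356092 to 54370203, minus strand) stood at 0.517 FPKM in siNT and 1.09 FPKM in siPAX9, a ratio of 2.11, but its mean was under 1 and the log2 ratio of 1.08 became 0.46 with 1 added to each FPKM. UCA1 (chromosome 19, 15939757 to 15947131) was listed at 0 in siNT and had an FPKM of 0.679 in siPAX9, so no fold was computed.

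Of the 9 lncRNAs matched by symbol, 7 had a mean FPKM of at least 1. Of these 7, MALAT1 and MIR22HG were at least 2-fold higher in siPAX9 and H19 at least 2-fold lower, and NEAT1, TUG1, PVT1 and MIR17HG were within 2-fold. The row of CYTOR was also at least 2-fold lower. Among all 12595 loci with a symbol and that mean, 850 (6.75%) were at least 2-fold higher and 870 (6.91%) at least 2-fold lower. Among the 428 of these annotated as lncRNA in GENCODE the shares were 11.7% (50 loci) and 7.94% (34 loci). The median log2 ratio of the 7 was 0.29, against 0.16 for the 428 lncRNA loci and -0.07 for all 12595, and 5 of the 7 were above 0, against 58.9% of the lncRNA loci. With 7 lncRNAs the counts do not set them apart from other lncRNAs.

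**Figure D2:**
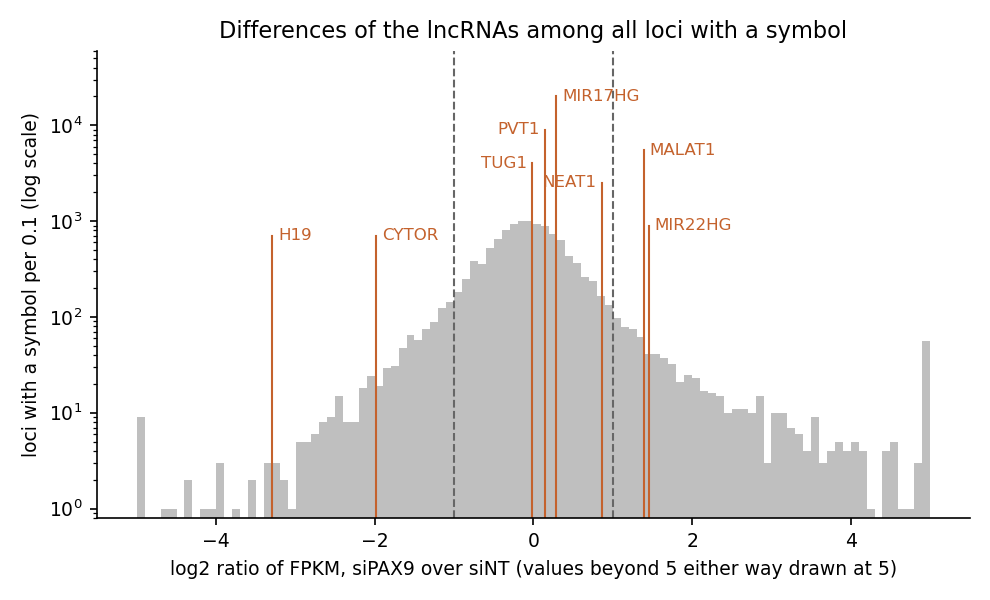
Histogram of the log2 ratio of FPKM, siPAX9 over siNT (horizontal axis), for loci with a symbol, a mean FPKM of at least 1 and values above 0 in both groups; the vertical axis counts loci on a log scale, and ratios beyond -5 or 5 are drawn in the end bins. Orange lines mark 7 matched lncRNAs and the row of CYTOR, and dashed lines mark 2-fold. H19 (-3.29) and CYTOR (-1.98) lie in the lower tail, MALAT1 (1.39) and MIR22HG (1.46) in the upper, and TUG1 (-0.012) near the centre.

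Promoters are shown for the 4 lncRNAs past 2-fold, as 250 bases before to 50 after the RefSeq start (GRCh38.p14), written along the gene's strand. RefSeq promoters were at hand for 6 of the 10 lncRNAs, with a pair for MALAT1, both of which are printed. They were searched on both strands for 9 motifs. GCGTGACCA and GCGGAACGG were binding sequences that the study used for PAX9. CACGTG is the E-box bound by MYC and related factors. TGACTCA is the site of AP-1 factors, and TGACGTCA is that of CREB. GGAATG is bound by TEAD factors. TTTGGCGC and TTTCGCGC are sites of E2F factors, and TATAAA is a TATA box. The AP-1 and CREB motifs share their opening bases, and no matches overlapped in the promoters searched. Capitals mark a match.
MALAT1 outer, chr11:65497488-65497787, plus strand: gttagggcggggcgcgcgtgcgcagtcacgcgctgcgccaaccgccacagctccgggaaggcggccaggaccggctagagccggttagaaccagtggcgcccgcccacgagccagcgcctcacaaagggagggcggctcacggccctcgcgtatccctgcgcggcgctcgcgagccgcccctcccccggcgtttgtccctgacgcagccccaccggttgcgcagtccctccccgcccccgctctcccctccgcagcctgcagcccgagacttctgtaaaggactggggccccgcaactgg
MALAT1 inner, chr11:65498795-65499094, plus strand: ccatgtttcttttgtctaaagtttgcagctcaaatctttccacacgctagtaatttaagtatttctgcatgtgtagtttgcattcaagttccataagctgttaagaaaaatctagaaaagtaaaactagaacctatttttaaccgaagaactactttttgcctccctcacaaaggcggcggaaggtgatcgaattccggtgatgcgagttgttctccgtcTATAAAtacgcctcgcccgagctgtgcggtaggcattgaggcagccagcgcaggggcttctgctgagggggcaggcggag
MIR22HG, chr17:1716161-1716460, minus strand: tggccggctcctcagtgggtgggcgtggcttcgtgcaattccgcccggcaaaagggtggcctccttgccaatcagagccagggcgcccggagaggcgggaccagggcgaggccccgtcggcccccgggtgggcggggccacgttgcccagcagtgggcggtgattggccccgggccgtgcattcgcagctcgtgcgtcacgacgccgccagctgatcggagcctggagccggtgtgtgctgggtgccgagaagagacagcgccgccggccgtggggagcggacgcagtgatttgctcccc
H19, chr11:2001217-2001516, minus strand: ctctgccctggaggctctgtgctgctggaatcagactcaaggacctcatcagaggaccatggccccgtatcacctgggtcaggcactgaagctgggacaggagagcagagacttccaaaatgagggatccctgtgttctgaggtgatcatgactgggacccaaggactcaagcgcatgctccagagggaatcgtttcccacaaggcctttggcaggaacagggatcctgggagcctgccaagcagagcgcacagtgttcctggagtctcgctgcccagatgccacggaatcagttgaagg
CYTOR, chr2:87455177-87455476, plus strand: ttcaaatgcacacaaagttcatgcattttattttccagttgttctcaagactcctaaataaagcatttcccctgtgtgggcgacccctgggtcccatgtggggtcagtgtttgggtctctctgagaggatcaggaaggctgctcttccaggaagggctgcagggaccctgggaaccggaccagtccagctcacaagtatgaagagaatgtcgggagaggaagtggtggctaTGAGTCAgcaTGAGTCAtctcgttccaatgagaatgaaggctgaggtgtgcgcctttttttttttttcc

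The inner MALAT1 promoter held TATAAA starting 30 bases before the start and the outer held none of the 9 motifs. TATAAA is a motif found in 11.5% of the 35116 promoters in the RefSeq table. The CYTOR promoter held the AP-1 motif at 2 places, both on the strand opposite the gene, so that the printed strand reads TGAGTCA, and within 20 bases before the start. That motif was in 4.95% of all promoters. No printed promoter of MIR22HG or H19 held any of the 9, and neither of these PAX9 sequences was in any of the 7 promoters searched. For H19, which has 31 transcripts in GENCODE, only the start printed was searched. Other PAX9 sequences that the study used were not searched here, nor was sequence further upstream. The searched pair were in 0.157% and 0.225% of all promoters. The TUG1 promoter held CACGTG, as did 7.26% of all. By base composition, the outer MALAT1 promoter had 73.7% G and C and those of MIR17HG, MIR22HG and TUG1 had 73.0%, 72.3% and 67.7%, above the median of 58.7% for all promoters, while those of H19 (57.7%), CYTOR (49.7%) and the inner MALAT1 promoter (46.0%) were below it.

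Genomic neighbours were taken as the loci with a symbol and a mean FPKM of at least 1 that overlapped the row or were nearest within 500 kb, up to 2 on each side. This gave 32 distinct neighbouring loci of 9 lncRNAs, of which 6 were at least 2-fold higher in siPAX9, 2 were at least 2-fold lower and 24 were within 2-fold. The share higher was 18.75%, against 6.75% of all loci with a symbol and that mean, and 6.91% of all were lower. Among the 6 are MIR1204 and MIR1207, whose rows have the span of PVT1 itself, and MIR1207 was listed at 0 in siNT and has no fold. HOXC13 and HOXC13-AS, also among the 6, share a span with each other. Several of these loci have rows of the same span, so they are not separate regions. Around NEAT1 and MALAT1, FRMD8, a regulator of cell surface proteases, stood at 15.6 FPKM in siNT and 22.3 FPKM in siPAX9, and SLC25A45, a mitochondrial carrier, had 0.933 and 2.08. On the other side of MALAT1, LTBP3, a binding protein of latent TGF-beta, had 5.83 and 10.1, a log2 ratio of 0.80 beside the 1.39 of MALAT1.

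MRPL23, a mitochondrial ribosomal protein gene at 34.5 kb from H19, stood at 78.4 FPKM in siNT and 43.9 FPKM in siPAX9, and SNORD131, listed in the same locus, had 9.88 and 2.34. On the other side of H19, CD81 had 98.5 and 98.0 and TSSC4 had 13.8 and 14.0, so both were level. IGF2, the imprinted partner of H19, was listed at 0 in siNT and at 0.0218 in siPAX9. WDR81, at 0.251 kb from MIR22HG, had 15.6 and 14.4, a log2 ratio of -0.12, and TLCD2 on its other side had 1.31 and 1.33. SERPINF2, which encodes an inhibitor of plasmin, lay 26.6 kb from MIR22HG and had 10.9 and 3.31, so MIR22HG was higher between neighbours that were level or lower. MYC, 53.1 kb from PVT1, had 394 in siNT and 248 in siPAX9, a log2 ratio of -0.67 against 0.14 for PVT1. MIR1207, a miRNA gene whose row has the same span as PVT1, was listed at 0 in siNT and had 37.8 in siPAX9. In PVT1 transcripts, 12 stretches of 76 bases were also in MIR1207, so reads from these cannot be assigned to either. MIR1204, another miRNA gene with that span, had 1.00 and 2.04, a log2 ratio of 1.03.

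Beside HOTAIR, HOXC13 and HOXC13-AS were at least 2-fold higher in siPAX9, and 3 further HOXC loci were within 2-fold. HOXC13, a factor of hair and nail keratin expression, stood at 3.53 FPKM in siNT and 9.74 FPKM in siPAX9, and HOXC13-AS had 1.28 and 8.30. HOXC11, whose gene span overlaps that of HOTAIR on the other strand, had 1.36 and 2.41, and HOXC9 had 4.21 and 5.78. HOXC-AS1 went the other way, with 3.90 in siNT and 2.37 in siPAX9. Near UCA1, CYP4F3, an enzyme that inactivates leukotriene B4, had 0.615 and 7.31, a log2 ratio of 3.57, and CYP4F11 had 1.45 and 2.31. The other neighbours of UCA1 had log2 ratios of 0.17 (WIZ) and -0.53 (TPM4, 89.9 and 62.4). All named neighbours of TUG1 and CYTOR were within 2-fold, with log2 ratios from -0.22 to 0.77, and MIR17HG had no neighbour by this rule.

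Loci without a symbol lay within 10 kb of 2 of the lncRNAs. After the end of NEAT1 there were 5, from 2.75 to 8.28 kb away and 400 to 3740 bases long, with FPKM of 0.292 to 1.34 in siNT and 1.06 to 2.52 in siPAX9. All 5 were higher in siPAX9, with log2 ratios of 0.76 to 2.11 and 3 past 2-fold. Another 8 lay 0.52 to 8.06 kb from the row of TUG1, but its span also holds MORC2 (31321117 to 31364760, minus strand), and these loci lie beyond the 3' end of MORC2, on its far side from the TUG1 gene (31365231 to 31375381). They had FPKM of 0.495 to 1.93 in siNT and 0.901 to 6.16 in siPAX9. All 8 were higher too, with log2 ratios of 0.28 to 1.68, against -0.012 for TUG1 and 0.27 for MORC2. This direction was common in such loci. Of the 8125 loci without a symbol and with a mean from 0.5 to under 5, 66.5% were higher in siPAX9 and 34.7% past 2-fold, with a median of 0.47. Among all 13787 loci without a symbol and above 0 in both groups, 54.5% were higher and 25.1% at least 2-fold higher, with a median of 0.12.

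**Figure D3:**
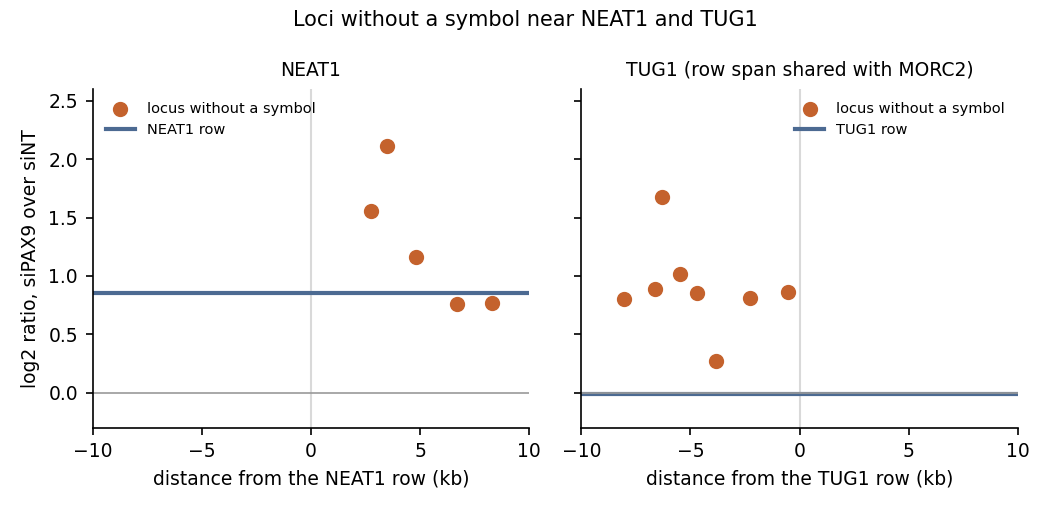
Log2 ratio of FPKM, siPAX9 over siNT (vertical axis), of loci without a symbol by their distance in kb from the row of NEAT1 (left) or TUG1 (right), with the ratio of the lncRNA as a blue line. Of the 5 loci after NEAT1, 3 lie above 1 and the others at 0.76 and 0.77, below its 0.86, and the 8 loci beside the span that TUG1 shares with MORC2 lie between 0.28 and 1.68, above the -0.012 of TUG1.

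Lists of related genes were described by counts of members with a mean FPKM of at least 1, to be read against the 6.75% and 6.91% above. Of 25 paraspeckle proteins, which assemble on NEAT1, 0 were at least 2-fold higher and 3 at least 2-fold lower, with a median log2 ratio of -0.38. The 3 were HNRNPA1 (255 in siNT and 97.4 in siPAX9), RBMX (124 and 52.2) and NUDT21 (45.6 and 21.0). NONO and SFPQ, core proteins of the body, had log2 ratios of -0.91 and -0.34, and 5 of the 25 were higher by any amount, beside 44.8% of all loci and 43.2% of protein-coding loci. HNRNPA1 has many processed copies, and its row also carries HNRNPA1P10. Of 15 proteins of nuclear speckles, where MALAT1 resides, 0 passed 2-fold either way and the median was -0.15. SRRM2, a scaffold of speckles, had the highest mean of both groups, with 117 in siNT and 155 in siPAX9, just above SRSF2, a splicing factor with 168 and 103. Of 12 factors of RNA 3' end cutting and m6A, a methyl mark on adenosine that MALAT1 carries, 0 passed 2-fold, and WTAP, with the highest mean, had 105 and 77.3.

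Among 16 chromatin regulators, some of them described as partners of HOTAIR, 0 were 2-fold higher and 1 was 2-fold lower, SUV39H1, a histone methyltransferase (4.83 in siNT and 2.30 in siPAX9), whose log2 ratio of -1.07 became -0.82 with 1 added to each FPKM. EZH2 and SUZ12, subunits of the Polycomb complex PRC2, had log2 ratios of -0.88 and -0.49. Of 12 genes related to H19 (imprinted genes, RNA-binding proteins and growth genes), MEST, an imprinted gene, was 3.76-fold lower (25.2 and 6.70), HMGA2, a chromatin protein of growing cells, 2.70-fold lower (33.7 and 12.5), and CDKN1C, an imprinted inhibitor of the cell cycle from the same chromosomal region as H19, 3.35-fold higher (4.76 and 16.0). The other 9 were within 2-fold, with a median over the 12 of -0.43. Of 25 transcription factors that have been linked to the lncRNAs, ETS2 was at least 2-fold lower (109 and 52.6) and 0 were at least 2-fold higher. After centring the log2 ratio of ETS2 was -0.99, within 2-fold.

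Of 31 published targets of the miR-17-92 cluster, 4 were at least 2-fold higher and 2 at least 2-fold lower, with a median of 0.09. Of the 31, 19 were higher by any amount, beside 44.8% of all loci and 43.2% of protein-coding loci. The higher genes were CDKN1A, a cell cycle inhibitor (69.0 in siNT and 373 in siPAX9), SOCS1 (0.506 and 2.41), CTGF (1.54 and 3.72) and TP53INP1 (7.23 and 15.3), and the lower genes RBL1 (3.35 and 1.55) and DGCR8 (118 and 58.7). The row of DGCR8 also carries the miRNA genes MIR1306 and MIR3618. With 1 added to each FPKM, CTGF, TP53INP1, RBL1 and DGCR8 were within 2-fold. Of 16 targets of miR-22, CDKN1A and ERBB3 (3.06 and 9.05) were at least 2-fold higher and ARRB1 (4.58 and 1.93) and CDK6 (14.0 and 6.33) at least 2-fold lower, with a median of -0.03 and 8 of the 16 higher by any amount. ARRB1 was within 2-fold with 1 added.

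The seeds printed above were also looked up as exact 7-base complements in the 3' untranslated regions of 10899 genes with a mean FPKM of at least 1, whose median log2 ratio was -0.08. The 1729 genes with a miR-22-3p match had a median of -0.02 and the 9170 without had -0.09. These regions differ in length, with medians of 2774 and 1142.5 bases, and among those of 1000 to 2000 bases the medians were -0.05 (356 genes) and -0.08 (2123 genes). For the seed of miR-17-5p and miR-20a-5p the medians in that length class were -0.01 with a match (527 genes) and -0.09 without (1952 genes). In the same class, genes with a match to miR-18a-5p had 0.023 (194 genes) against -0.082 without, and those with a match to the miR-19 pair had -0.015 (318 genes) against -0.081. For miR-92a-3p the order was the other way, with -0.082 (246 genes) against -0.072. For miR-675-5p, from the lower host H19, the medians were -0.057 (77 genes) and -0.073. No test was made of these differences.

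Other lncRNAs gave the setting for these values. Of 18 snoRNA host genes, whose introns carry small nucleolar RNAs, 0 were at least 2-fold higher and 8 at least 2-fold lower, with a median of -0.87. Of the 8, DANCR was within 2-fold with 1 added to each FPKM, and DANCR and SNHG17 were within 2-fold after centring, which left 7 and 6. GAS5 stood at 531 FPKM in siNT and 86.9 FPKM in siPAX9, EPB41L4A-AS1 34.3 and 12.1, SNHG16 177 and 67.2, and SNHG5 86.9 and 38.6. Of 9 other miRNA hosts, MIR181A2HG was at least 2-fold higher (0.387 and 1.93) and MIR4435-2HG, not separate from the CYTOR row, at least 2-fold lower. MIR205HG, the most abundant, had 873 and 1250. Of 27 other cancer-related lncRNAs, TINCR, an RNA of epidermal differentiation (0.253 and 5.69), LINC01133 (0.823 and 7.67) and TP53TG1 (11.0 and 26.4) were at least 2-fold higher. SPRY4-IT1, whose row it shares with the protein-coding gene SPRY4, was at least 2-fold lower (13.1 and 4.75). Of the 18 snoRNA hosts 2, and of these 27 lncRNAs 14, were higher by any amount, beside 44.8% of all 12595 loci and 58.9% of the lncRNA loci.

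**Figure D4:**
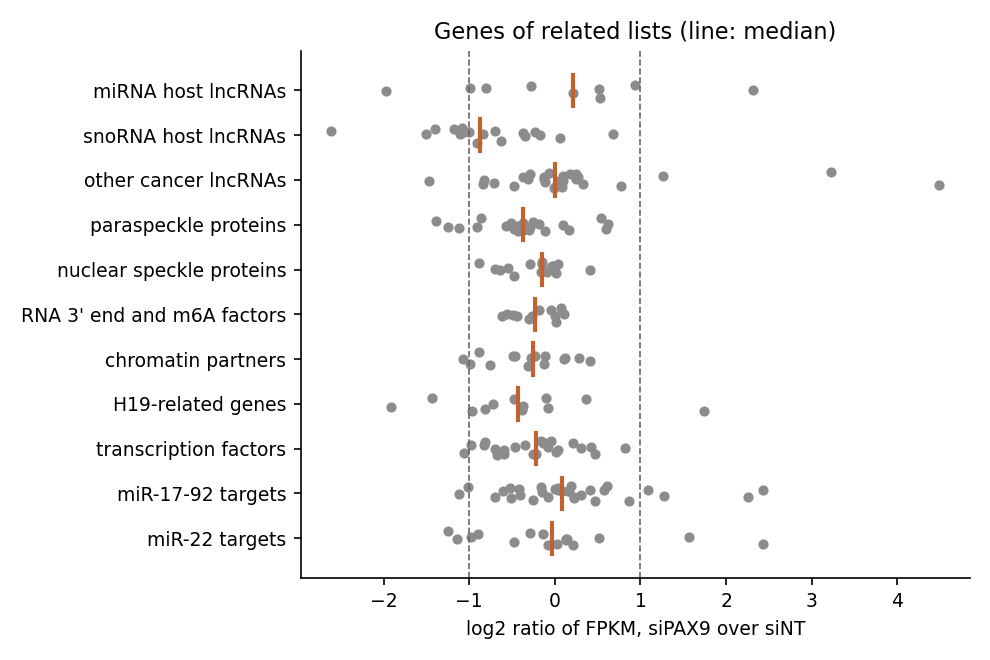
Log2 ratio of FPKM, siPAX9 over siNT (horizontal axis), for each gene with a mean FPKM of at least 1 (grey points) of 11 related lists, with the median of each list as an orange line and 2-fold as dashed lines. The snoRNA hosts have the lowest median (-0.87), and the median of the paraspeckle proteins is -0.38, with 5 of their 25 points above 0, beside 44.8% of all loci.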

How the data were processed

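Poly(A)+ RNA of 3 siNT and 3 siPAX9 samples of MCF10A cells was analysed. The authors used Partek Flow, with Bowtie 2 for aligning the single-end reads to hg19 and Cufflinks for the FPKM, and deposited 1 FPKM per locus and group. How libraries were scaled to each other is not given in the sources used here, and depth per sample was not in the table. The deposited columns of the authors' own comparison (log2 fold changes, test statistics, p-values and q-values) were not used.

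The log2 ratio of the FPKM in siPAX9 over siNT was computed without a pseudocount, with Python 3.11.15, numpy 2.4.6 and pandas 2.3.3, and plots were drawn with matplotlib 3.10.9. A difference was counted at 2-fold or more with a mean FPKM of at least 1. The ratio code was tested on the real siNT values, copied as a second group with known changes planted. The members and lists were chosen with earlier results of these data known. Named genes were all members, PAX9, the neighbours (of which some are not reported here), and up to 4 genes per list and direction past 2-fold by size, or the highest of a list without any. NONO, SFPQ, SRSF2, DANCR, SNHG17, EZH2, SUZ12, MIR205HG, the loci that share a row and the markers named were added as landmarks after their values were seen. Symbols that share a row share its value. Positions are 1-based on hg19, and 99.0% of 21608 loci with a single symbol on the main chromosomes overlapped that gene in GENCODE release 44 on GRCh37.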

Additional observations from a re-analysis of the deposited data

How the results depend on the processing

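The 3 FPKM differences past 2-fold (MALAT1, MIR22HG and H19) and that of the CYTOR row kept direction and stayed past 2-fold with 1 or 0.1 added to each FPKM and after centring on the median. Adding 1 brought H19 to -2.20 and HOTAIR to 0.46, since both have low FPKM. TUG1 changed sign on centring (0.055). UCA1, without a ratio in the main setting, had 0.75 with 1 added and 2.96 with 0.1 added. The share of loci 2-fold higher was 14.0% without a filter on low values and 3.82% with a mean of at least 10.

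With a mean of at least 10, the higher counts were 0 for miRNA hosts, 1 for other cancer lncRNAs, 2 for miR-17-92 targets and 1 for miR-22 targets, and the lower counts 0 for other cancer lncRNAs, 0 for chromatin regulators, 1 for miR-17-92 targets and 1 for miR-22 targets. With 1 added, the lower counts were 0 for chromatin regulators, 0 for miR-17-92 targets and 1 for miR-22 targets, and 2 miR-17-92 targets were higher. After centring, 0 transcription factors and 1 miR-17-92 target were lower. Fewer genes passed the stricter mean, and for the other counts the cause was not tested.

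Percentiles of level among loci with a mean of at least 1, in place of all loci above 0, were lower by 5 points or more in 13 cases and by less in 6. Adding FPKM of loci without a symbol inside a row gave no value, since none lay inside. No paired analysis was possible because the table holds 1 pooled value per group. For the same reason no sample was left out in turn.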
